A study of Rattus norvegicus with 6 samples.

Results

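The genes described here encode nucleolar proteins that make ribosomes. Their list holds 41 genes, and 33 of them were matched to a probe by RefSeq accession, out of 13876 genes and 24614 probes carried on the arrays. No probe was matched to Dkc1, Nop14, Nop2, Rrp12, Rrp1b, Tsr1, Utp20 or Wdr75, and each of the 33 had 1 probe. The measurements come from heart muscle of male Wistar rats on 1-colour Agilent arrays, labelled with Cy3. Whether each array holds 1 animal is not given in the sources used here, so p-values measure only the spread between arrays. In the border zone group (arrays M17, M24 and M25) the left anterior descending coronary artery was ligated and the tissue at the edge of the infarct, located by a double stain, was taken after 6 h. In the sham group (arrays C4, C5 and C6) the rats were operated on without infarction and control-zone myocardium was taken at the same time. The animals' age was not given in the sources used here, and the samples are whole tissue, in which more cells of a type and more RNA per cell cannot be told apart.

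Ribosomes are assembled in the nucleolus, where RNA polymerase I transcribes the precursor of most ribosomal RNA. Small nucleolar ribonucleoproteins (snoRNPs) modify that precursor, the small subunit processome folds and cuts it, and separate sets of factors build the small and the large subunit before export to the cytoplasm. In the heart this pathway is known to be more active in growing cardiomyocytes, and the transcription factor MYC is known in other mammalian cells to bind many of its genes at E-boxes.

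Several arrays stood apart. All 3 border-zone arrays and sham C4 were scanned together, whereas C5 and C6 were scanned separately, so a fit with scan as a block compares the border zone with C4 alone and holds no spread between sham animals. Well above background were 74.3% to 78.3% of probes on the border-zone arrays, and 73.7% on C4, 51.0% on C5 and 52.4% on C6 of the sham arrays. Of 557 probes above background that differed over 2-fold between M17 and M24, M25 lay between them in 548 (98.4%), so M25 may not come from an animal of its own, and n = 3 counts arrays. Cardiomyocyte markers were present in all samples: none of 11 measured passed the test (limma, 0 at adjusted p below 0.05), and their summed signal ranged over 760 to 863 in the border zone and 793 to 1020 in sham, in multiples of the 75th percentile of an array. Markers of central nervous tissue (13 measured, 6 tested, of which 2 fell) summed to 1.22 to 1.59 in the border zone, and to 2.03 (C4), 13.4 (C5) and 16.7 (C6) in sham. Of these, Nefl, Aqp4, Syt1, Mog, Slc17a7 and Stmn2 were not well above background on any border-zone array, and Syt1 and Slc17a7 on no sham array.

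The promoters show one sequence feature of the gene set. RefSeq promoter windows (build GRCr8, 250 bases before the start and 50 after) were matched for 37 of the 41 genes, and 14 of these (37.8%) held the palindromic E-box letters CACGTG, read on both strands, against 7.02% of 21851 protein-coding promoters. Among the 29 promoters of measured genes 8 held them (27.6%), and in 117 promoters of other ribosome biogenesis genes the share was 22.2%. A match describes the letters and no binding. Windows of 6 genes follow to set 4 genes with the letters beside Nip7 and Nop58, which rose by over 2-fold and lack them, as do Nob1, Ddx21, Nop56 and Noc2l. Each runs 5′ to 3′ from 170 bases before the start to 30 after it, and the capitals mark CACGTG.
Gnl3 chr16:6219753-6219952 (minus strand): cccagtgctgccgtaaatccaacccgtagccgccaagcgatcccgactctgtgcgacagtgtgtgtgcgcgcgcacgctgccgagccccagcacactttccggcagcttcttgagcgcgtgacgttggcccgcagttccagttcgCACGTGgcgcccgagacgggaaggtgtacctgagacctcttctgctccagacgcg
Nle1 chr10:68340151-68340350 (minus strand): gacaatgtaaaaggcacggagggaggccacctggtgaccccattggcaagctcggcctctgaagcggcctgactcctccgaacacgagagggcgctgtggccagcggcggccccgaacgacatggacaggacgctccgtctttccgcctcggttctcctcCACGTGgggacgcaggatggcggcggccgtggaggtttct
Mybbp1a chr10:57555288-57555487 (plus strand): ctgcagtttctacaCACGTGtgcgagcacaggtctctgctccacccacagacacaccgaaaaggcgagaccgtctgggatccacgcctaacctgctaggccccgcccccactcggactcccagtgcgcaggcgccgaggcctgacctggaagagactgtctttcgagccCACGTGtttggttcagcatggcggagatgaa
Fbl chr1:92597237-92597436 (plus strand): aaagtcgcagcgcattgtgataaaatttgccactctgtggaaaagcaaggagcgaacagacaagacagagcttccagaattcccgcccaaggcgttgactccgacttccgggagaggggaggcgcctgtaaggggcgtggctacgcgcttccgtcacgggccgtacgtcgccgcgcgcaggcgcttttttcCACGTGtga
Nip7 chr19:51872136-51872335 (plus strand): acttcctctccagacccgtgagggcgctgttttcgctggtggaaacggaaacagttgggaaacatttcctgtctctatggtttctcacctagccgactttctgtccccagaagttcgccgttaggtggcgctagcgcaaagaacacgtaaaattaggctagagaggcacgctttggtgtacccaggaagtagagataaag
Nop58 chr9:68614904-68615103 (plus strand): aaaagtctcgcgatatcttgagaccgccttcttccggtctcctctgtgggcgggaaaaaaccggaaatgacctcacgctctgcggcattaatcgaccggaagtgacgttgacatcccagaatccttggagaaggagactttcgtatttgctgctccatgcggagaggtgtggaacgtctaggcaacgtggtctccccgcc
In Gnl3 the letters begin 25 bases before the start and in Nle1 10 bases before it. In Mybbp1a they occur at 2 places, beginning 156 bases and 1 base before the start. In Fbl they lie just downstream of the start, and in Nip7 and Nop58 they are not in the window. Among measured genes with a promoter, 5 of 8 with the letters rose in the border zone (median log2 fold change 0.88) and 15 of 21 without them (median 0.90). The set holds a further feature by position: 6 of the 41 genes (14.6%) have snoRNA genes within their bounds in the GRCr8 annotation, against 1.79% of 23154 protein-coding genes. These were Nop56 and Nop58 with 5 each, Gnl3, Ncl and Wdr43 with 3 each, and Tsr1 with 2. Those inside Nop56 include Snord110, Snord86 and Snord57, box C/D RNAs of the kind that the Nop56 protein packages.

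The nucleolar genes rose broadly at 6 h. Of the 33 measured, 23 (69.7%) rose in the border zone (limma, adjusted p below 0.05), 0 were lower and 10 did not pass. Among all 17930 probes tested, 9.01% were called higher and 10.3% lower. The share called higher was 9.79% among protein-coding probes and 10.8% among protein-coding probes above background on all 6 arrays. Lower values in the border zone at an unadjusted p below 0.05 were found for 1 gene, Polr1a. The log2 fold change was above 0 for 31 of 33 genes, against 48.1% of all probes, and its median was 0.90 (1.87-fold), against -0.03 for all probes. The 23 genes that rose ranged from 0.46 to 1.95 on the log2 scale, 11 of them by at least 2-fold, which 4.39% of all probes did. All 23 were well above background on all 6 arrays. Only Heatr1, Noc3l and Polr1e were dim on 1 or more sham arrays and entered the test through the border zone alone, and none of the 3 passed.

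**Figure D1:**
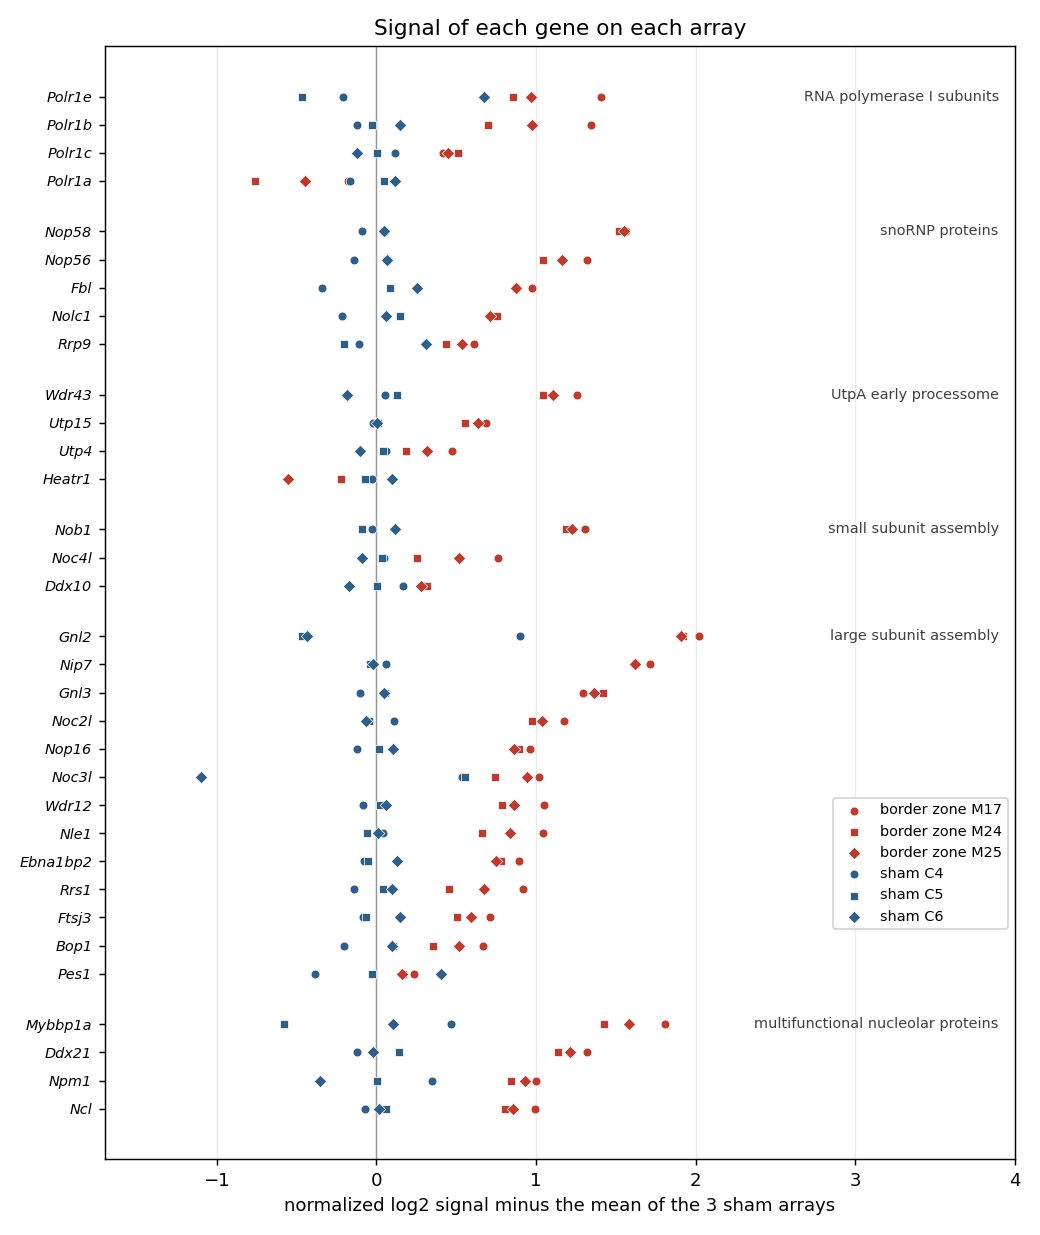
Normalized log2 signal of each of the 33 genes on each array, as the difference from the mean of the 3 sham arrays (horizontal axis, log2 units), with genes in rows grouped by role, border-zone arrays in red and sham arrays in blue, and a marker shape for each array. For 30 genes the 3 red points lie right of all blue points, for Polr1a and Heatr1 they lie left of them, and for Pes1 they fall among them.

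The arrays of a group lay close together in most of these genes. The range over the 3 border-zone arrays had a median of 0.19 log2 units over the 33 genes, and that over the 3 sham arrays 0.24, against 0.24 and 0.53 over all probes. Above background on all 6 arrays were 30 of the 33 genes but only 11936 of the 17930 probes tested, so these ranges compare unlike signal levels. The groups did not overlap with the border zone higher in 30 of 33 genes (20.9% of all probes) and with the border zone lower in 2 (22.8% of all probes). The 30 include Polr1e and Noc3l, whose dim sham arrays limit what their separation shows and whose log2 fold changes were -0.0045 and -0.21 with another background correction (normexp). Of the 30 genes above background on all 6 arrays, 28 were separated with the border zone higher, against 24% of such probes. In 18 genes the gap between the groups was larger than the range within either group, which held for 6.37% of all probes. Relative to the sham mean, the median gene was 0.99 log2 units higher on M17, 0.78 on M24 and 0.86 on M25, and it stood at -0.08 on C4, 0.01 on C5 and 0.06 on C6. M17 was the highest border-zone array in 29 of 33 genes and M24 the lowest in 23, with M25 between them in 25. In the following, levels are log2 signals minus the 75th percentile of the array, which compare arrays and not genes, and the error of a log2 fold change is the standard error of the limma fit with n = 3 arrays per group.

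Of the 4 measured subunits of RNA polymerase I, 2 rose and 2 did not pass. Polr1b, the second-largest subunit of the enzyme, was at 0.79, 0.14 and 0.42 on M17, M24 and M25, against -0.67, -0.58 and -0.41 on C4, C5 and C6. All border-zone arrays were above all sham arrays, although M17 and M24 differed by more than the sham arrays did (log2 fold change 1.01 ± 0.19, limma adjusted p = 0.0211, 1.13 against C4). Polr1c, a subunit shared with RNA polymerase III, was at 2.13, 2.23 and 2.17 in the border zone and at 1.84, 1.72 and 1.60 in sham (0.46 ± 0.11, limma adjusted p = 0.0418), the smallest of the 23 rises. Its call ended without M17, M24, M25, C5 or C6, and with scan as a block (limma adjusted p = 0.0929). Polr1e, which helps the enzyme engage its initiation factors, was at -2.88, -3.43 and -3.31 in the border zone and at -4.49, -4.75 and -3.61 in sham, where C5 was not above background. The sham arrays were spread over more than 1 log2 unit, and the gene did not pass (1.08 ± 0.33, limma adjusted p = 0.0713). Polr1a, the catalytic subunit, ran against the others: it was at 1.67, 1.09 and 1.40 in the border zone and at 1.69, 1.90 and 1.97 in sham. M17 came within 0.02 log2 units of C4, and the difference did not pass (-0.46 ± 0.18, limma adjusted p = 0.127, -0.30 against C4).

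Among snoRNP proteins 4 of 5 measured rose. Nop58, one of the core proteins of box C/D snoRNPs, was at 2.21, 2.16 and 2.20 in the border zone, against 0.55, 0.69 and 0.69 in sham. The arrays of each group agreed to within 0.14 log2 units, and the groups were 2.92-fold apart (1.55 ± 0.10, limma adjusted p = 0.00152, 1.64 against C4). Its paralog and partner Nop56 was at -0.00, -0.28 and -0.16 in the border zone and at -1.46, -1.26 and -1.26 in sham (1.18 ± 0.13, limma adjusted p = 0.00470). Fibrillarin (Fbl), the methyltransferase of the same particle, was at 2.79, 2.69 and 2.69 in the border zone and at 1.47, 1.90 and 2.07 in sham. The sham arrays were less even here, with C4 lowest, so that the log2 fold change of 0.91 ± 0.18 (limma adjusted p = 0.0222) became 1.25 against C4. Nolc1, a chaperone of snoRNPs, was at 2.42, 2.42 and 2.38 in the border zone and at 1.45, 1.82 and 1.73 in sham (0.74 ± 0.13, limma adjusted p = 0.0176). Rrp9, a protein specific to the U3 particle, did not pass (0.53 ± 0.17, limma adjusted p = 0.0784). Snu13, the fourth core protein of the box C/D particle and not one of the 33 genes, did not pass (0.24 ± 0.16, limma adjusted p = 0.313). Dkc1 of the box H/ACA particle is not analysed here.

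The UtpA complex, which binds the precursor RNA first and starts the small subunit processome, was represented by 4 genes, of which 2 rose. Wdr43 was at -0.10, -0.31 and -0.24 in the border zone, against -1.30, -1.22 and -1.54 in sham, a clear separation (1.14 ± 0.13, limma adjusted p = 0.00549). Utp15 was at -0.80, -0.93 and -0.85 in the border zone and at -1.50, -1.48 and -1.48 in sham (0.63 ± 0.10, limma adjusted p = 0.0135). Here the 3 sham arrays were within 0.03 log2 units of each other. Utp4 was at 0.07, -0.22 and -0.09 in the border zone and at -0.35, -0.37 and -0.51 in sham. The groups did not overlap but the difference did not pass (0.33 ± 0.13, limma adjusted p = 0.121). Heatr1 was dim throughout, at -6.37, -6.37 and -6.71 in the border zone and at -6.18, -6.22 and -6.05 in sham, with C5 and C6 not above background. It did not pass (limma adjusted p = 0.145), and its direction turned with the scaling, from -0.33 ± 0.14 to 0.94 with quantile scaling.

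Of 3 measured genes of small subunit assembly, 1 rose. Nob1, the endonuclease that makes the final cut at the end of the small subunit RNA, was at 3.08, 2.96 and 3.00 in the border zone, against 1.75, 1.68 and 1.89 in sham. This gene of a late, cytoplasmic step showed one of the tightest separations (2.36-fold, 1.24 ± 0.11, limma adjusted p = 0.00292, 1.27 against C4). Noc4l, a processome component, was at -1.35, -1.86 and -1.60 in the border zone and at -2.07, -2.08 and -2.21 in sham, a difference that did not pass (0.51 ± 0.16, limma adjusted p = 0.0726). The helicase Ddx10 was at 0.08, 0.09 and 0.05 in the border zone and at -0.06, -0.23 and -0.40 in sham, and did not pass either (0.30 ± 0.13, limma adjusted p = 0.144).

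Large subunit assembly had 13 measured genes, of which 10 rose and 3 did not pass. Gnl2, a nucleolar GTPase of large subunit assembly, was at 2.98, 2.89 and 2.87 in the border zone, against 1.86, 0.50 and 0.53 in sham. Sham C4 stood apart from C5 and C6, so the pooled log2 fold change of 1.95 ± 0.38 (limma adjusted p = 0.0226) became 1.05 against C4, and the call ended without M17, M24, M25, C5 or C6. Nip7, which takes part in maturation of the large subunit, was at 2.36, 2.27 and 2.27 in the border zone and at 0.71, 0.61 and 0.63 in sham. Its groups were 3.14-fold apart with a gap 15.0 times the larger within-group range, the widest such ratio of the 33 genes (1.65 ± 0.10, limma adjusted p = 0.00124, 1.59 against C4). Nucleostemin (Gnl3), a GTPase known from stem cells and from stressed mouse heart, was at 3.88, 4.01 and 3.95 in the border zone and at 2.49, 2.64 and 2.64 in sham (1.36 ± 0.11, limma adjusted p = 0.00217). Noc2l was at 0.73, 0.53 and 0.59 in the border zone and at -0.34, -0.49 and -0.51 in sham (1.06 ± 0.12, limma adjusted p = 0.00467). For Nip7, Gnl3 and Noc2l each array of the border zone was at least 0.8 log2 units above every sham array.

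Of the 9 other large subunit factors, 6 rose. Nop16, Wdr12, Nle1, Ebna1bp2, Rrs1 and Ftsj3 rose by 0.91, 0.90, 0.85, 0.81, 0.68 and 0.61 on the log2 scale, with limma adjusted p between 0.00651 (Nop16) and 0.0345 (Rrs1). Wdr12 works in a trimeric complex with Pes1 and Bop1, and these partners did not pass. Bop1 was at 0.83, 0.52 and 0.69 in the border zone and at -0.04, 0.27 and 0.26 in sham (0.51 ± 0.15, limma adjusted p = 0.0612). Pes1 was at 0.98, 0.91 and 0.90 in the border zone and at 0.36, 0.72 and 1.15 in sham. Only in Pes1 among the 33 genes did the groups overlap, since C6 exceeded all border-zone arrays (0.19 ± 0.21, limma adjusted p = 0.551), and its value was 0.57 against C4 and -0.00 without C4. Noc3l was near background, with C6 not above it, and did not pass (0.90 ± 0.46, limma adjusted p = 0.218). Whether the members of the trimer differ from each other in their change was not tested.

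All 4 multifunctional nucleolar proteins rose. Mybbp1a, a nucleolar protein that binds MYB and p53, was at -0.70, -1.08 and -0.92 in the border zone, against -2.04, -3.08 and -2.40 in sham (1.61 ± 0.28, limma adjusted p = 0.0174, 1.14 against C4). Its sham arrays were 1.05 log2 units apart, more than the border-zone arrays. The RNA helicase Ddx21 was at 3.60, 3.42 and 3.49 in the border zone and at 2.16, 2.42 and 2.26 in sham (1.23 ± 0.12, limma adjusted p = 0.00386). Nucleolin (Ncl), an abundant RNA-binding protein of the nucleolus, was at 4.64, 4.45 and 4.50 in the border zone and at 3.57, 3.70 and 3.66 in sham (0.89 ± 0.11, limma adjusted p = 0.00670). Both genes were separated by several times their within-group range. Nucleophosmin (Npm1), a histone and ribosome chaperone, was at 3.91, 3.76 and 3.84 in the border zone and at 3.26, 2.92 and 2.56 in sham. It was 0.92 ± 0.20 higher pooled and 0.57 against C4 (limma adjusted p = 0.0280 pooled). Npm1 has many processed pseudogene copies, and what its probe takes from them was not tested. The 6 role groups were not tested against each other.

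**Figure D2:**
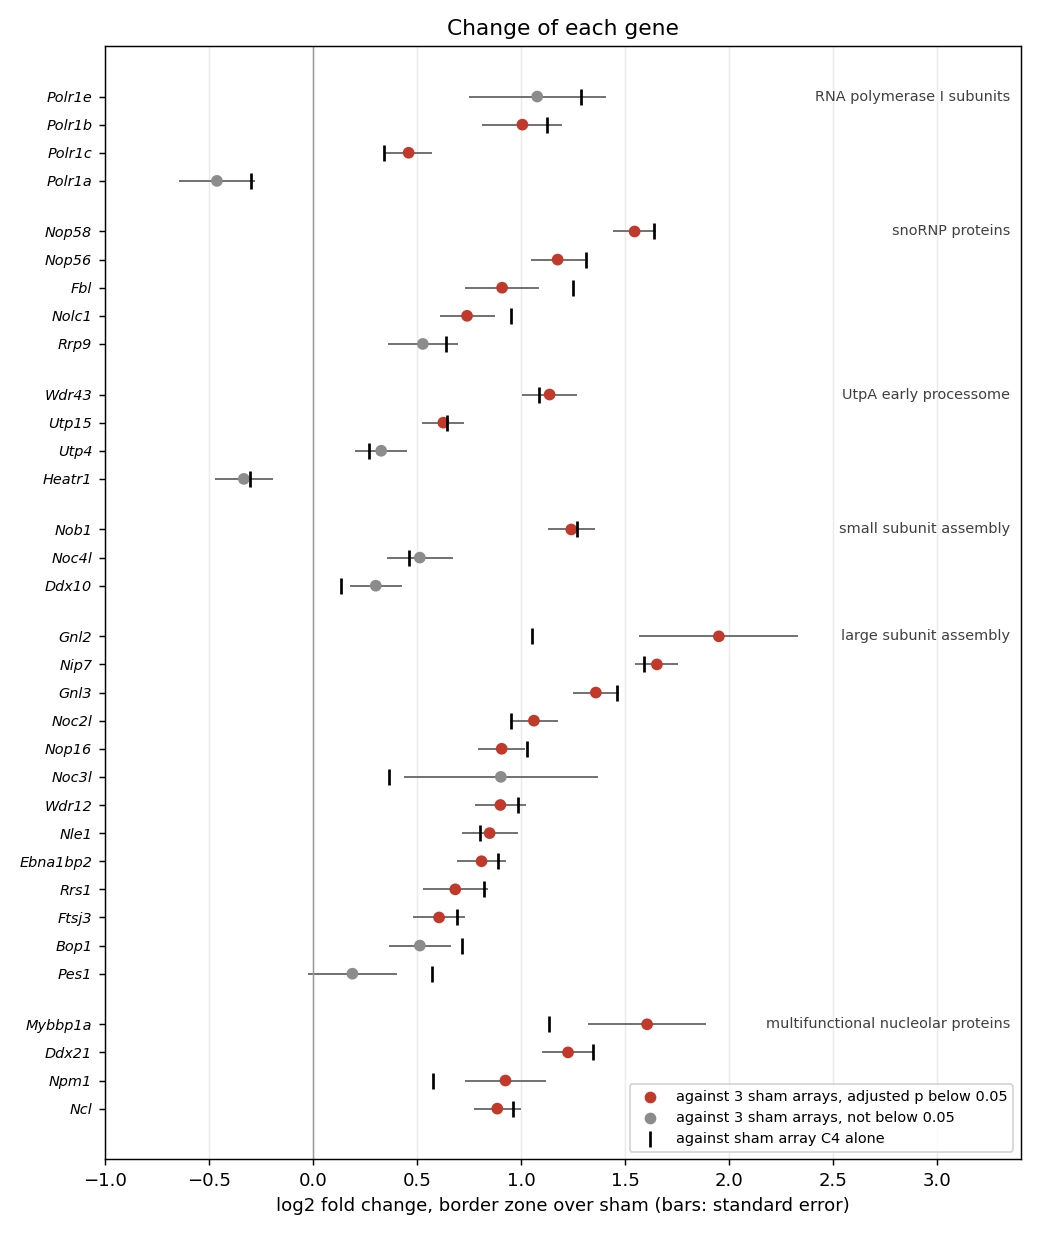
Log2 fold change of each gene, border zone over sham (dots, with the standard error of the limma fit, n = 3 arrays per group), and the same difference against sham array C4 alone (black ticks), with genes grouped by role. Red dots mark the 23 genes with adjusted p below 0.05, and in Gnl2, Npm1, Noc3l, Mybbp1a, Polr1c and Ddx10 the tick lies left of the error bar.

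Comparison with C4 alone, the sham array scanned with the border zone, gave a similar count. Of the 33 genes, 22 were called higher (8.43% of all probes) and none lower (7.5% of all probes). The pooled fit called 19 of the 22 too, and the median log2 fold change was 0.95. Called pooled but not against C4 were Nle1, Polr1b, Polr1c and Rrs1, and called against C4 but not pooled were Polr1e, Rrp9 and Pes1. Both comparisons share C4 and the border-zone arrays. Sham C4 was lower than the mean of C5 and C6 by a median of 0.12 log2 units over the 33 genes, and their median stood at -0.08 on C4 relative to the sham mean.

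The count of calls moved with single arrays of both groups. Without M25, 7 genes were called higher (1.59% of all probes higher and 1.24% lower), without M17 13 (3.42% higher) and without M24 14 (2.99% higher), with the median log2 fold change at 0.90, 0.83 and 0.93. Without sham C5 16 genes were called higher (3.69% of all probes), without C6 22 (6.57%) and without C4 24 (20.7%). The 7 genes called whichever array was left out were Nip7, Nop58, Gnl3, Nob1, Ddx21, Nop56 and Noc2l, where 1.60% of all probes were so called. Of the other genes that rose, Rrs1, like Polr1c and Gnl2, was called in only 1 of these 6 fits, and Npm1, Fbl and Ftsj3 in 2. Without M25 and against C4 alone, 0 of 33 genes passed in limma (0.366% of all probes higher and 0.0611% lower), with 25 higher at an unadjusted p below 0.05 and a median log2 fold change of 0.97. When only probes above background on all 6 arrays were tested, 26 of 30 genes were called higher, against 15.8% of probes higher and 20.2% lower.

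**Figure D3:**
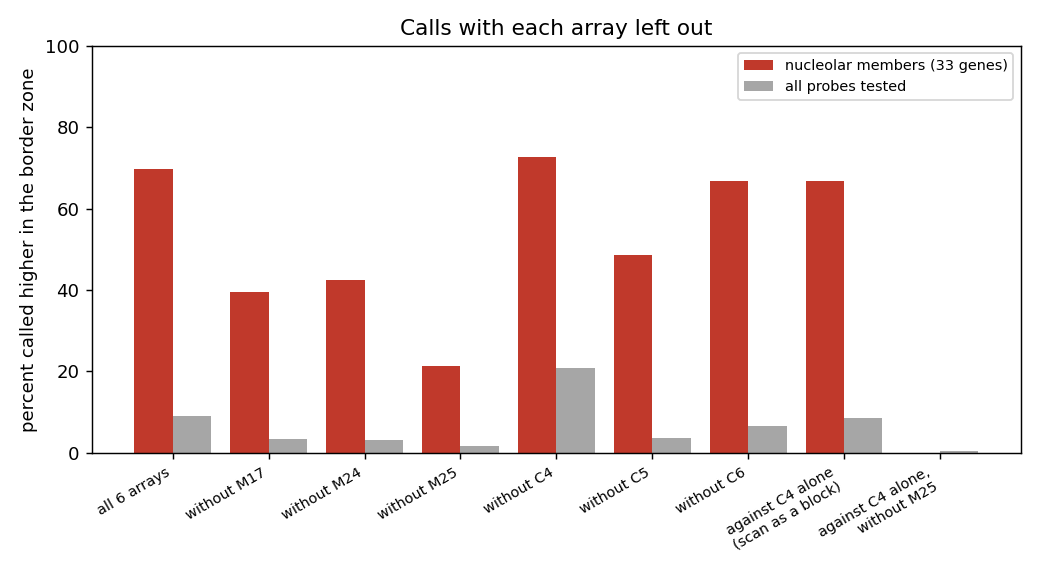
Percent of the 33 genes (red) and of all probes tested (grey) called higher in the border zone by limma at adjusted p below 0.05, with all 6 arrays, with each array left out in turn, and against sham C4 alone with and without M25. The red bars stand at 69.7% with all arrays, 21.2% without M25 and 0% without M25 against C4 alone, and the grey bars at 9.01%, 1.59% and 0.366%.

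Other genes of the pathway also rose. Of 128 other ribosome biogenesis genes listed, 91 were measured and 88 tested. Of the 88, 34 rose (38.6%, against 9.01% of all probes), 0 fell (against 10.3%) and 54 did not pass (limma). Their median on the log2 scale was 0.45, and 0.47 against C4. In the first step, 3 of 8 tested genes of the RNA polymerase I apparatus rose: the subunit Polr1g (2.01 ± 0.14, limma adjusted p = 0.00155), the promoter selectivity factor Taf1c (0.67) and the initiation factor Rrn3 (0.51). In small subunit assembly 13 of 31 rose, led by Pno1 (1.28 ± 0.14), Utp18 (1.08) and Wdr46 (1.03), and in large subunit assembly 14 of 32, led by Sdad1 (1.82 ± 0.17), Ppan (1.44) and Rrp15 (1.34). Of 9 tested genes of snoRNP assembly, Shq1 (1.05) and Naf1 (0.53), which work in box H/ACA assembly, rose. Of 8 RNA exosome genes, which trim the precursor, Dis3 (0.67) and Exosc5 (0.54) rose. Shq1 was above background on 2 of the 3 sham arrays and entered the test through the border zone alone, which limits its call. No other gene of the 34 did so, and others that entered in this way, such as Gar1 and Taf1a, did not pass. Polr1g exceeded every one of the 33 listed nucleolar genes in its log2 fold change. No test between the lists was run.

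Genes for the proteins of the ribosome itself were measured too. A rule on symbols left large subunit genes whose symbols end in a number out of the cytosolic list. That list holds mostly small subunit (Rps) genes, with few Rpl genes such as Rpl7a and Rpl35a, and does not describe the whole family. Among its 35 genes 5 rose (14.3%, against 9.01% of all probes), 0 fell and 30 did not pass (limma). The log2 fold change was above 0 for 33 of the 35 (94.3%), against 48.1% of all probes. In 29 the groups did not overlap in either direction, which held for 7838 of 17930 probes. The median change was 0.43 log2 units, and 0.24 against C4. Examples were Rps13 (0.73 ± 0.12), Rps28 (0.54) and Rps10 (0.53). Among 56 tested mitochondrial ribosomal protein genes 2 rose and 2 fell, with a median of -0.11 (-0.02 against C4), including Mrpl40 (-0.98 ± 0.12). These groups were not tested against the nucleolar genes.

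**Figure D4:**
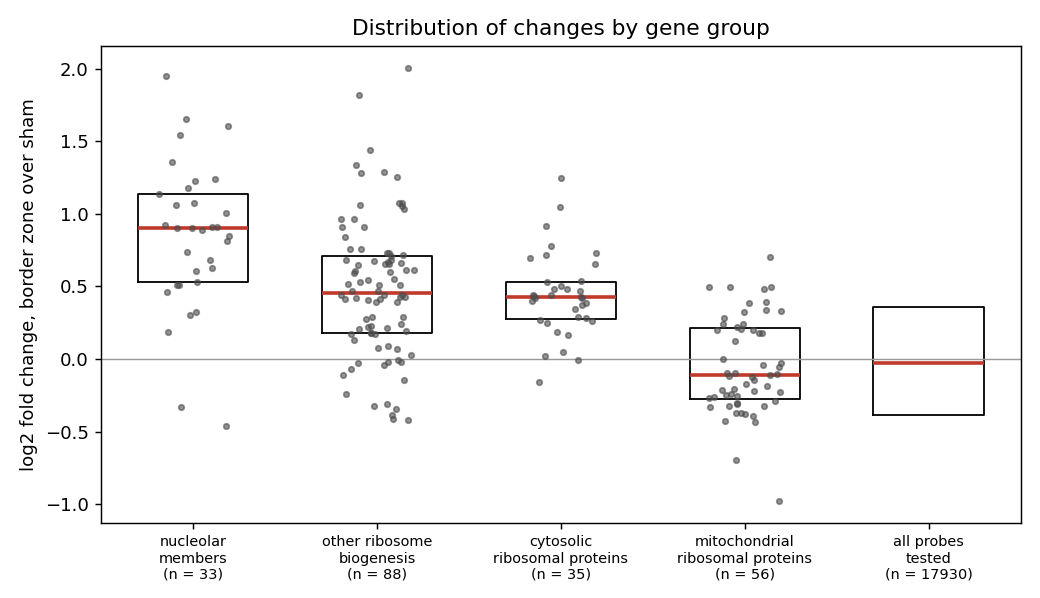
Log2 fold change, border zone over sham, of the 33 nucleolar genes, of 88 other ribosome biogenesis genes, of 35 cytosolic (mostly small subunit) and 56 mitochondrial ribosomal protein genes, and of all 17930 probes tested (boxes: quartiles, red line: median, points: single genes, not drawn for all probes). The medians are 0.90, 0.45, 0.43, -0.11 and -0.03.

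Markers of other cells moved alongside. All 8 tested neutrophil markers of 9 measured rose, and the summed signal of the list was 5.81 to 6.87 in the border zone and 0.309 to 0.578 in sham, where Pglyrp1, Mmp8 and Fpr1 were not above background on any array. Of the 8, only S100a8 and Lcn2 were above background on all sham arrays. The others entered the test through the border zone alone, where they are high, which limits what their count shows. Of 10 tested monocyte and macrophage markers of 11 measured, 5 rose and 1, Adgre1 (-0.77), fell. Their sums were 64.2 to 67.3 in the border zone and 25.8 to 35.6 in sham. These sums add signals on the linear scale, and the brightest gene, Lyz2 (log2 fold change 1.70), weighs most in them, so they do not describe the list as a whole. Cd163 was not above background on any array of either group, and Itgam on no sham array. Itgam and Clec4e, which rose, also entered the test through the border zone alone. Of 7 markers of dividing cells 5 fell and 0 rose, among them Ccna2 (-2.07) and Cdk1 (-1.78), with sums of 1.90 to 2.02 in the border zone and 4.08 to 4.75 in sham. Most nucleolar genes rose in the same comparison, and a relation between them and these markers was not tested. Endothelial markers (2 of 6 fell) summed to 16.6 to 19.9 in the border zone and 24.3 to 25.1 in sham. Fibroblast markers (1 rose and 2 fell of 7) summed to 68.6 to 80.6 in the border zone and 97.3 to 125 in sham. The 2 that fell were the collagens Col3a1 (-1.84) and Col1a2 (-1.02), which are bright and weigh much in the sum, and Tcf21 rose (1.84). Red cell markers, of which 0 of 3 tested passed in limma, summed to 61.6, 6.49 and 45.3 on M17, M24 and M25, against 52.0 to 69.2 in sham. The part of these cell types and of nervous tissue RNA in the nucleolar genes was not tested.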

How the data were processed

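Spot signals are intensity values that the authors made with Agilent Feature Extraction 11.0.1.1, per the file headers, with background subtraction and spatial detrending and no normalization between arrays. Further deposited columns in use were flags (outlier, saturated, well above background) and raw median signals. The authors' table of log2 values, whose columns share nearly the same quantiles, served as an alternative. Its direction and scale followed the scanner signals (correlation at least 0.992), and how it was made is not given in the sources used here.

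Control and outlier spots were left out (70 of 24684 probes lost), spots of a probe were averaged on the log2 scale, and each array's 75th percentile was subtracted. The test covered probes flagged above background on every array of the border zone, of sham, or of both, and 33 of 33 matched genes met this. Border-zone and sham arrays entered a two-sided limma 3.58.1 test under R 4.3.3 (lmFit, then eBayes). Its p-values were adjusted by Benjamini-Hochberg across the whole array, and 0.05 was the threshold. Genes were named through RefSeq accessions in the GRCr8 gene table. The array headers name build rn4, and no coordinates were used to match probes. Coordinates of GRCr8 were used for the promoter windows and for the snoRNA genes. Other lists use 1 probe a gene, the one with the highest mean level. Per-array values are given for up to 4 genes of each role group by absolute fold change, and for Bop1 and Pes1, which like Snu13 were chosen after their values were seen. The members and lists were chosen with earlier results of these data known. The fit was tested on simulated data. Figures used Python 3.11.15, pandas 2.3.3 and matplotlib 3.10.9. The number of arrays limits the precision, and p-values measure the spread between arrays. The files hold no mean signal column, so normexp used median signals.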

Additional observations from a re-analysis of the deposited data

How the results depend on the processing

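Of the 33 genes, 21 to 26 were called higher under median and quantile scaling, normexp (chosen in this form after the data were seen), the filter on all 6 arrays, scan as a block and the authors' table, 18 without a filter, and 23 with probes averaged. Leaving out 1 array gave 7 (without M25) to 24 (without C4), and 0 remained without M25 with scan as a block. The median log2 fold change was 1.09 with median scaling, which moves the median of all probes by 0.19 and gives 67.6% of calls as higher, against 46.7%, and relative to all probes it was 0.93 both ways, 0.74 with quantile scaling (all probes moved by 0.12) and 1.19 with normexp (moved by -0.32). Of other ribosome biogenesis genes 21 were higher with normexp, 18 without a filter, 5 (without M25) to 44 (without C4) with 1 array left out, and 0 without M25 with scan as a block. As lower, 0 to 3 were called with 1 array left out, the 3 without C4. All probes called numbered 3460, and 2293 with normexp, 1826 without a filter, 77 without M25 with scan as a block, and 509 (without M25) to 7433 (without C4) with 1 array left out. Directions turned for genes that did not pass: Heatr1 (0.94 with quantile scaling, 0.39 in the authors' table), Polr1e (-0.0045 with normexp), Noc3l (-0.21 with normexp) and Pes1 (-0.0028 without C4). No paired analysis was possible because the groups share no replicate numbers. The causes were not tested.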
